A study of Mus musculus with 9 samples.

Results

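Fatty acid oxidation, together with the target genes of the nuclear receptor PPARA, was described here through 38 genes. They were taken as the rows of the deposited count table that carry the symbols of a fixed list, which gave 38 of 55487 genes. All 38 were found, and 37 of them had enough counts to be tested. Cd36 did not, and is given by its counts only.

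The cells were PT-22, a mouse kidney proximal tubule line labelled PT-22,Pax8-pTRIPZ, with the genotype Pax2-/-, Pax8fl/fl, Rosa-CreERT2. This genotype was shared by every group. Rosa-CreERT2 is a Cre recombinase that 4-hydroxytamoxifen activates, which is meant to delete the floxed Pax8 alleles, and pTRIPZ is a vector that doxycycline switches on. PAX8 and PAX2 are transcription factors of kidney development. There were 3 libraries each of untreated cells at day 0, of cells at day 6 after 1 uM 4-hydroxytamoxifen, and of cells at day 12 that had gone on to doxycycline at 1 ug/ml every 2 days. Drug, time in culture and PAX8 cannot be told apart, because vehicle-treated cells, untreated cells at day 6 or 12 and doxycycline-free cells at day 12 were not analysed here. Nothing in the labels says that the replicates of a day were separate cultures, so the p-values reflect a library-to-library spread that may be technical.

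Mitochondrial fatty acid oxidation shortens an acyl chain by repeated rounds of dehydrogenation, hydration, a further dehydrogenation and thiolysis, after the acid has been bound in the cytosol, joined to coenzyme A and carried across the inner membrane on carnitine. Very long chains are shortened first in peroxisomes. PPARA pairs with a retinoid X receptor and, when bound by fatty acids, raises transcription of many of these enzymes, and PPARGC1A is its coactivator. The proximal tubule of the kidney is known for its heavy reliance on this pathway for energy.

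Each library held 56398623 to 86767334 counts, and 1 count equalled 0.0119 to 0.0172 CPM, the count scaled to library size by TMM. The members took 0.229% to 0.234% of all counts at day 0, 0.271% to 0.278% at day 6 and 0.276% to 0.291% at day 12. Mitochondrially encoded genes took 6.79% ± 0.14 (SD) of the counts at day 0, 7.09% ± 0.072 at day 6 and 2.83% ± 0.99 at day 12 (n = 3 each), with 3.96% in day 12 replicate B and 2.43% and 2.10% in the others. Day 12 replicate B stood apart from its group, with a chi-square per degree of freedom of 35.9 and 41.2 against replicates A and C, which stood at 8.12 from each other. Without it, 8 members were higher and 15 lower at day 12 against day 6, and 21 and 6 at day 12 against day 0. Pax8 averaged 405 ± 5.9 CPM at day 6 and 291 ± 1.7 CPM at day 0 (SD of 3 libraries), so its whole-gene count was not lower after 4-hydroxytamoxifen. Pax2, given as deleted, was counted in every library, with 46.9 ± 3.2 CPM at day 6 and 31.9 ± 2.4 CPM at day 0. A count over a whole gene does not check a deletion of some exons. Of 16 proximal tubule markers, 6 were tested, and Slc34a1, Slc5a12 and Slc22a6 had no count in any library. Their summed level was 606 to 703 CPM at day 0, 462 to 497 CPM at day 6 and 498 to 551 CPM at day 12. This sum joins opposite moves: 5 of the 6 were lower at day 6 than at day 0, among them Lrp2, with 58.7 ± 10 CPM at day 6 against 391 ± 44 CPM at day 0, while Aqp1 was higher, with 324 ± 11 CPM against 119 ± 13 CPM. The sum of 8 adipocyte markers was 6.87 to 8.06, 9.83 to 10.5 and 9.13 to 10.3 CPM in the same order, nearly all of it Lipe, with Lep and Cfd at 0 throughout. Endothelial markers summed to 4.31 to 5.05, 16.5 to 16.9 and 12.2 to 12.5 CPM, mostly Flt1, with Tie1 at 0. Loop and distal tubule markers summed to 16 to 17.1, 60.8 to 66.5 and 43.9 to 47.4 CPM, nearly all Trpm6, with Kcnj1 at 0. Macrophage and leukocyte markers summed to 41.0 to 46.3, 24.5 to 28.2 and 28.3 to 29.3 CPM, mostly Csf1r and Cd68, with Tyrobp at 0. Fibroblast and pericyte markers summed to 7.96 to 8.45, 6.71 to 6.96 and 11.0 to 12.9 CPM, with Tcf21 at 0. Collecting duct markers summed to under 1.8 CPM in every library, with Foxi1 at 0. The last 3 sums also join opposite moves at day 6 against day 0. Pdgfrb averaged 2.45 against 0.0762 CPM, and Dcn 0.442 against 4.92 CPM, with 5.08 CPM at day 12. Lyz2 averaged 2.77 against 0.335 CPM and Ptprc 0.0299 against 2.12 CPM. Aqp3 averaged 0.511 against 0.256 CPM and Slc4a1 0.0385 against 1.17 CPM. The part of these shifts in the results was not tested. Every value after ± is an SD over 3 libraries, unless marked SE or given with a log2 fold change, where it is an SE.

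A pair of nuclear receptors such as PPARA and its partner bind repeats of the hexamer AGGTCA. For this reason promoters of 4 selected members are shown, all of them higher at day 6 than at day 0. Each is the RefSeq window of GRCm38.p6 from 250 bases before to 50 bases after the start, with any copy of AGGTCA, or of its reverse complement TGACCT, in capitals. Acadm, the medium-chain acyl-CoA dehydrogenase, lies at chr3:153944594-153944893 on the minus strand and Plin2, a lipid droplet coat protein, at chr4:86670010-86670309 on the minus strand. Echs1, the short-chain enoyl-CoA hydratase, lies at chr7:140116372-140116671 on the minus strand and Fabp3, a cytosolic fatty acid binding protein, at chr4:130308488-130308787 on the plus strand.
Acadm: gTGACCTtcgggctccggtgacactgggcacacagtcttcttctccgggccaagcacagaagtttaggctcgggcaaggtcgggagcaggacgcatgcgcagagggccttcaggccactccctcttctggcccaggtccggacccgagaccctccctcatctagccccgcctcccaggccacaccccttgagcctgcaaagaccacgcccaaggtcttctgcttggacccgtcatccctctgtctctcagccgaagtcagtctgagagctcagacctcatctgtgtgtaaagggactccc
Plin2: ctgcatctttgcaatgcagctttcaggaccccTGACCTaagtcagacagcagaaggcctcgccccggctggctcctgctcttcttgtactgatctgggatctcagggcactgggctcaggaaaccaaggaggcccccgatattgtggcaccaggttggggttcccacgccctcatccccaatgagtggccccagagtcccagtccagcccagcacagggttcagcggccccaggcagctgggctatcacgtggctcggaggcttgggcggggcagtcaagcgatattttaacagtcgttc
Echs1: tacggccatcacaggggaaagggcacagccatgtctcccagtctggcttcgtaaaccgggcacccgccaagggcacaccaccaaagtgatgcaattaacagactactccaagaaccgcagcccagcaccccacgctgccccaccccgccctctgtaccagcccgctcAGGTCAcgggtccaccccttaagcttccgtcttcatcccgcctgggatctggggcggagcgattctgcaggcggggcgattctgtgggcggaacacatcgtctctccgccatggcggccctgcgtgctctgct
Fabp3: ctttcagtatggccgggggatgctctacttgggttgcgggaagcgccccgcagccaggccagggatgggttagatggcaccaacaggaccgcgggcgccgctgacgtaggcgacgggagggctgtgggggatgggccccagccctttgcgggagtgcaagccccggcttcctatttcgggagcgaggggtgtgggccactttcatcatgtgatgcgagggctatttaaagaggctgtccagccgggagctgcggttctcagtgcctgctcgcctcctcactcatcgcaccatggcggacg

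The hexamer began 249 bases upstream of the start in Acadm, 218 bases upstream in Plin2 and 83 bases upstream in Echs1, and these letters are not in the Fabp3 window. Of the 33 members matched in the promoter table, 7 held it on either strand, or 21.2%: Acadm, Acadvl, Cat, Cd36, Cpt1a, Echs1 and Plin2. Over all 27025 promoters the share was 16%. Cat, which holds the hexamer, was lower at day 6 than at day 0, and no lower member is among the 4 windows shown. The full repeat, 2 copies of AGGTCA with 1 free base between them, was in 0 of the 33 and in 0.0444% of all promoters. The looser repeat of AGGNCA, also with 1 base between and including the full one, was in 0 of the 33 and in 0.381% of all promoters. A match of letters is a description of the window and not a binding site.

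By level per transcript length, given in the authors' TPM (transcript abundance corrected for length), the pathway was led in untreated cells by Etfb at 164 ± 15 TPM, Plin2 at 132 ± 3.3, Acadl at 107 ± 2.6, Acaa2 at 102 ± 3.9 and Acadm at 100 ± 5.6 TPM (SD, n = 3). The lowest were Ehhadh at 0.233 ± 0.015, Ppara at 0.0767 ± 0.0058 and Cd36 at 0.0633 ± 0.1 TPM. Plin2 led at day 6 with 256 ± 4.8 TPM and at day 12 with 313 ± 18 TPM. Acaa2 ranked 4 at day 0, 19 at day 6 and 16 at day 12. The summed level of all members was 1778 ± 28 TPM at day 0, 2180 ± 19 TPM at day 6 and 2397 ± 110 TPM at day 12, and in scaled counts 2392 ± 27, 2829 ± 26 and 2666 ± 63 CPM (SD, n = 3 each).

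At day 6 against day 0, RNA of the binding proteins Fabp3 and Fabp5, the synthetases Acsl3 and Acsl4, the droplet coat gene Plin2 and the 3 auxiliary enzymes was higher. RNA of the synthetase Acsl1, of Cat and of the thioesterase Acot2 was lower, and the synthetase Acsl5 was not called. The enzymes of the mitochondrial spiral were called in both directions. Of the 37 members tested, 20 were higher and 6 lower (edgeR quasi-likelihood test, adjusted p under 0.05), that is 54.1% and 16.2%. Over all 16353 genes tested 33.5% were higher and 31.4% lower. In these bulk libraries, fewer cells of a type and less RNA per cell cannot be told apart. The median log2 fold change was 0.16 over the members and 0.02 over all genes. In 21 members every day 6 library lay above every day 0 library and in 7 below, against 35.5% and 33.4% of all genes. At a change of 1.5-fold or more, 9 members were higher and 2 lower, against 15.5% and 9.58% of all genes.

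At day 12 against day 6, 10 of the 37 members were higher and 15 lower, that is 27.0% and 40.5%, where 22.6% of all genes were higher and 22.7% lower. The median was -0.05 over the members and 0.01 over all genes. Most of these changes were small: 2 members (Ppara and Ehhadh) were higher and 1 (Acsl3) lower by 1.5-fold or more, against 4.93% and 4.13% of all genes. Every day 12 library lay above every day 6 library in 10 members and below in 16, against 27.7% and 26.3% of all genes. The split of calls depended on the scaling. Of all genes called, 50% were higher after TMM scaling, 60.5% with upper-quartile factors, 79.8% with library totals and 91.2% on log2(TPM + 1). The median of all genes moved to 0.14 with library totals and to 0.19 on log2(TPM + 1), with the members at 0.09 and 0.14. Member counts were then 15 higher and 7 lower with library totals, and 18 higher and 3 lower on log2(TPM + 1), whose filter kept 35 members and left out Ppara and Ehhadh. With TPM centred on the median gene they were 5 higher and 14 lower, an alternative chosen after seeing the data. Leaving mitochondrially encoded genes out of the TMM scaling gave the same 10 and 15.

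**Figure D1:**
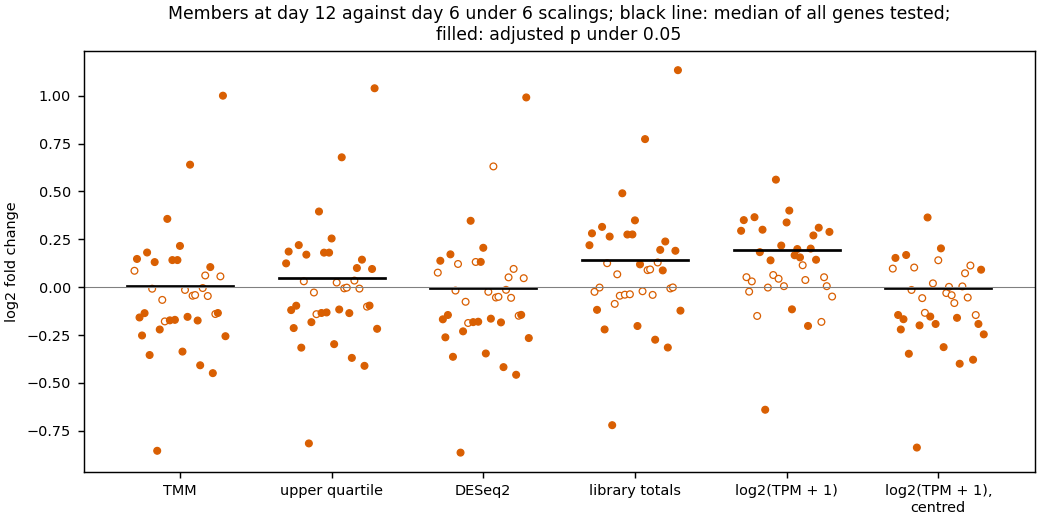
Log2 fold change of the tested members (37, or 35 for the TPM fits) at day 12 against day 6 (vertical axis) under 6 scalings (horizontal axis). Each point is a member, filled where the adjusted p is under 0.05, and the black line is the median of all genes tested. The line lies at 0.01 with TMM and at 0.19 on log2(TPM + 1), and the members move with it.

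At day 12 against day 0, 22 members were higher and 7 lower, or 59.5% and 18.9%, where 34.7% of all genes were higher and 31.7% lower. The member median was 0.17 and the median of all genes 0.03. The libraries did not overlap in 22 members that were higher and 6 that were lower, against 36.8% and 32.9% of all genes. At 1.5-fold or more, 7 were higher and 2 lower, against 15.7% and 8.84%. With library totals the counts were 30 and 4, and on log2(TPM + 1) 29 and 3, with all-gene medians of 0.17 and 0.22. Of all genes called in this comparison, 52.3% were higher after TMM scaling, 69.3% with library totals and 81.7% on log2(TPM + 1). The comparisons share libraries, so each is given by its own values and none supports another.

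**Figure D2:**
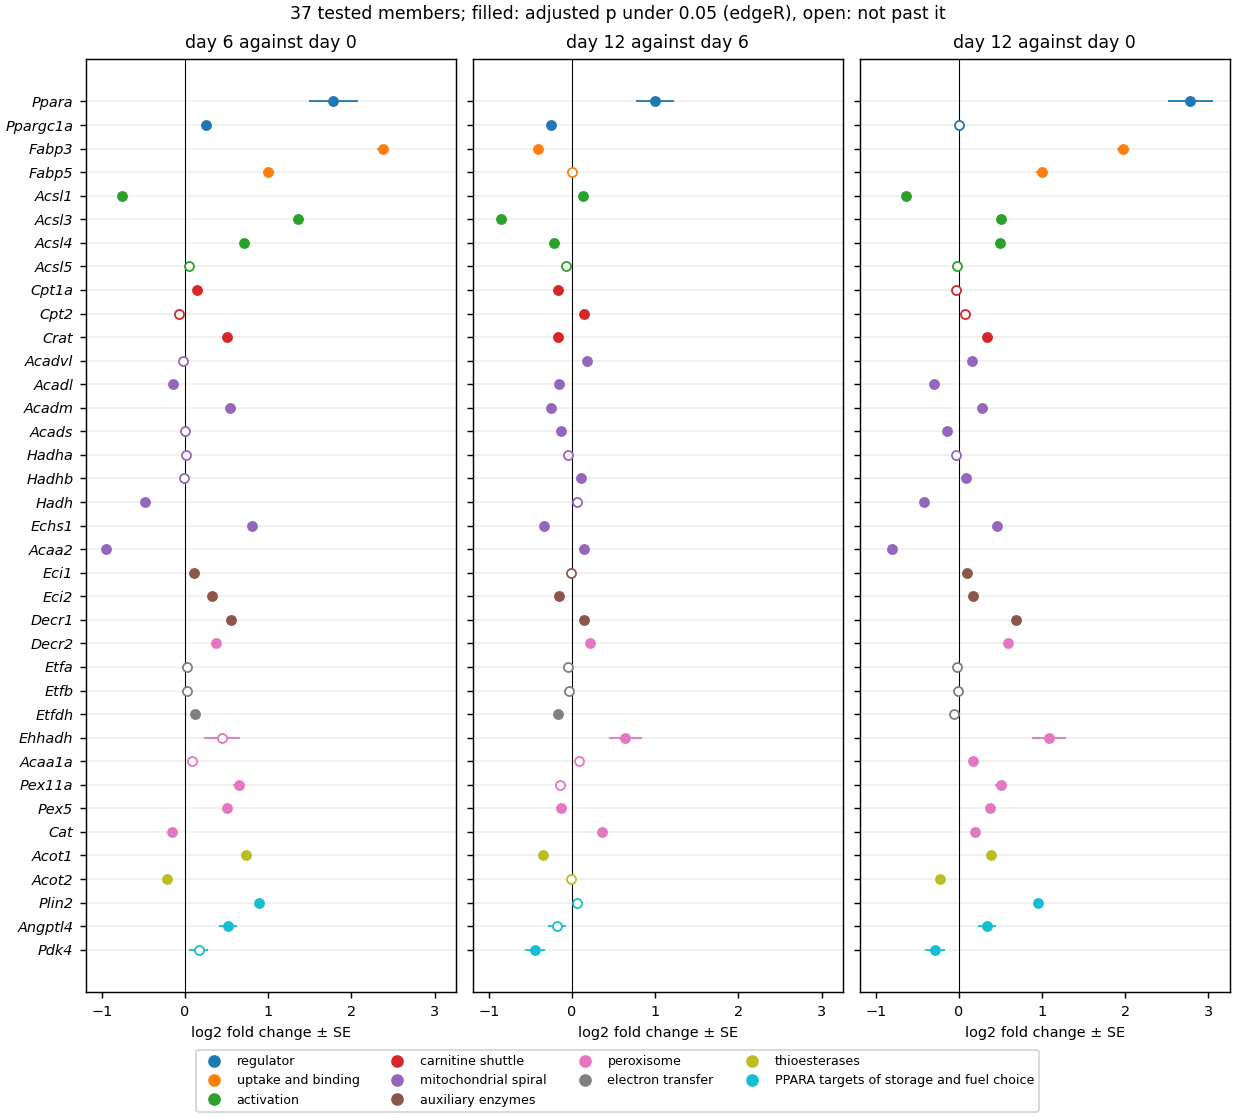
Log2 fold change ± SE (horizontal axis) of the 37 tested members, ordered by role, for day 6 against day 0, day 12 against day 6 and day 12 against day 0. Filled points have an adjusted p under 0.05 (edgeR) and open points do not. Fabp3, at 2.38, lies farthest right at day 6 against day 0, and Ppara, at 2.78, at day 12 against day 0.

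Of the regulators, Ppara (ENSMUSG00000022383, GRCm38 chromosome 15, 85734983 to 85802819) stayed at a very low level. It had 0.143, 0.112 and 0.159 CPM at day 0, 0.384, 0.486 and 0.585 CPM at day 6, and 1.03, 0.951 and 0.912 CPM at day 12, from 12, 7 and 11, then 26, 36 and 34, then 80, 71 and 55 counts. No library of a later day overlapped with an earlier day. Ppara was 3.44-fold higher at day 6 than at day 0 (log2 1.78 ± 0.29 SE, adjusted p = 5.88e-05), 2.00-fold higher at day 12 than at day 6 (adjusted p = 0.00216) and 6.89-fold higher at day 12 than at day 0 (adjusted p = 2.48e-07). Among the PPAR receptors it remained a small share of the summed TPM, with 0.326% ± 0.037 (SD) at day 0, 0.68% ± 0.21 at day 6 and 1.63% ± 0.55 at day 12 (n = 3 each). Ppard held 89.1%, 73.4% and 72.9% over the 3 days and Pparg 10.6%, 26.0% and 25.4%. Ppargc1a had 51.6, 50.1 and 49.5 CPM at day 0, 61.0, 62.3 and 57.1 CPM at day 6, and 51.8, 48.9 and 50.4 CPM at day 12. Its day 6 libraries lay above all others. Its log2 fold change was 0.26 at day 6 against day 0 (adjusted p = 2.32e-05) and -0.26 at day 12 against day 6 (adjusted p = 6.38e-05). The value of -0.00 at day 12 against day 0 (adjusted p = 0.993) became 0.14 with library totals and 0.23 on log2(TPM + 1).

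**Figure D3:**
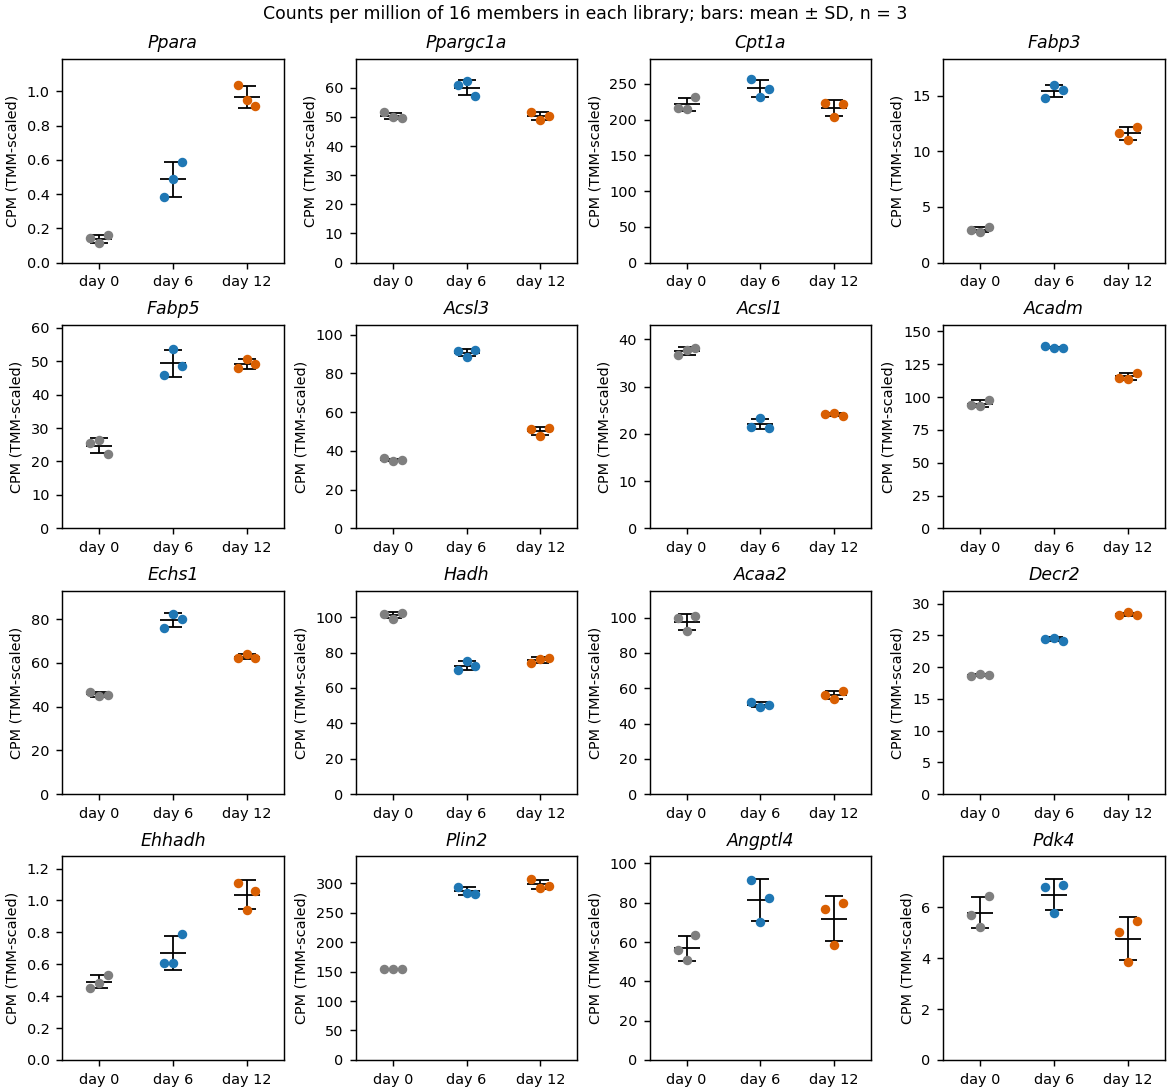
TMM-scaled CPM (vertical axes, each from 0) of 16 members in each library at day 0, day 6 and day 12. Points are libraries A, B and C from left to right, and bars are the mean ± SD of 3. The steps of Ppara over the 3 days, the day 6 peak of Acsl3 and the wide spread of Angptl4 and Pdk4 can be read from it.

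Uptake and binding genes held the largest fold of the list at day 6. Fabp3 (ENSMUSG00000028773, chromosome 4, 130308595 to 130315463) had 2.94, 2.75 and 3.16 CPM at day 0, 14.8, 15.9 and 15.5 CPM at day 6, and 11.6, 11.0 and 12.2 CPM at day 12. The groups did not overlap, and the day 12 libraries lay between the others. It was 5.22-fold higher at day 6 than at day 0 (log2 2.38 ± 0.07 SE, adjusted p = 1.63e-13) and 3.93-fold higher at day 12 than at day 0 (adjusted p = 2.6e-12). At day 12 it was 1.33-fold lower than at day 6 (adjusted p = 6.07e-05). Fabp5, a binding protein of epithelial and fat cells, had 25.4, 26.4 and 22.2 CPM at day 0, 45.8, 53.7 and 48.6 CPM at day 6, and 47.8, 50.7 and 49.1 CPM at day 12. In CPM its later libraries overlapped with each other and lay above day 0, while in TPM every day 12 library lay above every day 6 library. It was 2.00-fold higher at day 6 than at day 0 (adjusted p = 1.5e-09), with no call at day 12 against day 6 (adjusted p = 0.96). Of the summed TPM of both genes, Fabp3 held 13.7% ± 1.9 at day 0, 29.2% ± 0.92 at day 6 and 23.6% ± 1.2 at day 12. Of the 50-base stretches of the longest coding transcript of each gene, 29.2% of Fabp3 and 21.1% of Fabp5 also occur in other genes, mainly pseudogene copies. Reads of these stretches may be shared with those genes. How many counts this touches was not tested.

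Cd36, the membrane fatty acid translocase, was near the floor in every library. It had 0, 1 and 4 counts at day 0, 8, 6 and 0 at day 6, and 9, 5 and 4 at day 12. A count of 0 allows up to 0.0358 CPM in day 0 replicate A and 0.0516 CPM in day 6 replicate C, by counting error alone. The day 12 libraries, at 0.116, 0.067 and 0.0663 CPM, lay above those of day 0, at 0, 0.016 and 0.0577 CPM. Cd36 did not pass the filter, so a difference was not tested in the main fit, and these counts are too few to read one from.

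The acyl-CoA synthetases, which join fatty acids to coenzyme A, moved apart. Acsl3, which works at the endoplasmic reticulum and lipid droplets, had 36.1, 34.8 and 35.1 CPM at day 0, 91.7, 88.7 and 91.9 CPM at day 6, and 51.2, 47.7 and 51.7 CPM at day 12. All 3 groups were separate, with day 6 highest. It was 2.57-fold higher at day 6 than at day 0 (log2 1.36 ± 0.036 SE, adjusted p = 5.31e-14), 1.81-fold lower at day 12 than at day 6 (adjusted p = 1.56e-10) and 1.42-fold higher at day 12 than at day 0 (adjusted p = 9.73e-09). Acsl4, which prefers arachidonate, averaged 212 ± 3.4 CPM at day 6 against 129 ± 2.7 CPM at day 0 (log2 0.71, adjusted p = 1.4e-10) and 182 ± 9.6 CPM at day 12. Acsl1, the form most tied to oxidation and storage in heart, liver and fat, averaged 22.0 ± 1.1 CPM at day 6 against 37.5 ± 0.81 CPM at day 0, 1.70-fold lower (adjusted p = 2.7e-10), and 24.2 ± 0.33 CPM at day 12. Acsl3 shares 4.05% of its 50-base stretches with Utp14b. Acsl5 was not called in any comparison, with 127 ± 3.9, 131 ± 3.2 and 125 ± 3.2 CPM over days 0, 6 and 12. In TPM shares of the 4 synthetases, Acsl1 made up 13.0% ± 0.53, 5.38% ± 0.27 and 7.20% ± 0.3 at days 0, 6 and 12, and Acsl3 15.5% ± 0.44, 28.4% ± 0.58 and 19.1% ± 0.47. Acsl5 had the highest share at day 0, with 38.9%, and Acsl4 at day 6 and day 12, with 37.7% and 40.1%.

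**Figure D4:**
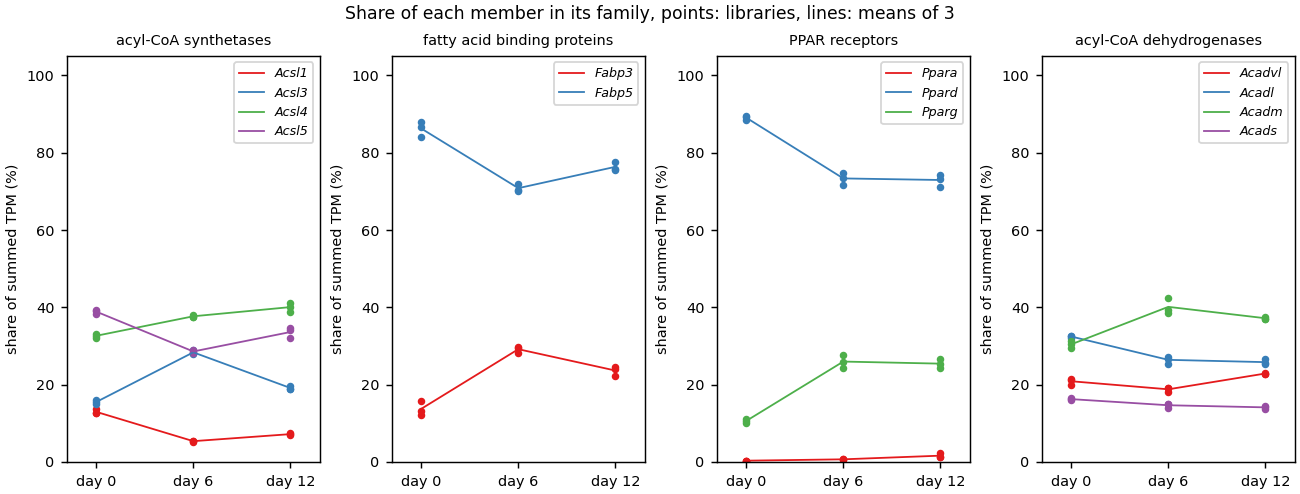
Share of each gene in the summed TPM of its family (vertical axis, percent) at day 0, day 6 and day 12, for the acyl-CoA synthetases, the 2 fatty acid binding proteins, the PPAR receptors and the acyl-CoA dehydrogenases. Points are libraries and lines join the means of 3. Acsl3 goes to 28.4% at day 6, while Ppara stays under 2.3% in every library.

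In the carnitine shuttle, Crat was higher at day 6 and the palmitoyltransferases moved little. Cpt1a, the outer-membrane carnitine palmitoyltransferase that sets the rate of entry into mitochondria, had 216, 215 and 232 CPM at day 0, 256, 232 and 243 CPM at day 6, and 223, 203 and 222 CPM at day 12. Its libraries at day 6 and day 0 overlapped. Its log2 fold change was 0.14 ± 0.045 at day 6 against day 0 (adjusted p = 0.0132), a call that was lost without day 0 replicate A (0.12), day 0 replicate B (0.12) or day 6 replicate A (0.10). At day 12 against day 6 it was -0.17 (adjusted p = 0.00552), which was no longer called with library totals and became 0.04 on log2(TPM + 1). Cpt2, the inner-membrane enzyme, was not called at day 6 against day 0 (log2 -0.07, adjusted p = 0.153). Crat, the acetyltransferase for short chains, averaged 57.7 ± 1.1 CPM at day 6 against 40.7 ± 0.86 CPM at day 0 (log2 0.51, adjusted p = 2.2e-09) and 51.3 ± 1.2 CPM at day 12.

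In the mitochondrial spiral, 2 of 9 enzymes were higher, 3 lower and 4 not called at day 6 against day 0. These 22.2% and 33.3% lie near or under the 33.5% and 31.4% of all genes. Values for each library of Acadm, Echs1, Acaa2 and Hadh were chosen after they had been seen. Acadm had 94.0, 93.2 and 97.9 CPM at day 0, 139, 137 and 137 CPM at day 6, and 114, 114 and 119 CPM at day 12. Echs1 had 46.8, 44.7 and 45.4 CPM at day 0, 75.9, 82.2 and 80.2 CPM at day 6, and 62.3, 64.3 and 62.1 CPM at day 12. In both, the groups were separate, with day 12 between. The log2 fold change at day 6 against day 0 was 0.54 ± 0.03 for Acadm (adjusted p = 3.18e-10) and 0.80 ± 0.035 for Echs1 (adjusted p = 2.1e-11). Acaa2, the thiolase of the last step for medium and long chains, had 99.6, 92.2 and 101 CPM at day 0, 51.9, 49.2 and 50.6 CPM at day 6, and 56.1, 53.6 and 58.4 CPM at day 12. It was 1.93-fold lower at day 6 than at day 0 (log2 -0.95 ± 0.041, adjusted p = 1.54e-11) and 1.74-fold lower at day 12 than at day 0 (adjusted p = 1.42e-10). Hadh, the dehydrogenase for short-chain hydroxyacyl-CoA, had 102, 99.1 and 102 CPM at day 0, 70.0, 75.5 and 72.3 CPM at day 6, and 74.0, 76.3 and 77 CPM at day 12. It fell at day 6 against day 0 (log2 -0.48, adjusted p = 4.45e-09) and was still lower at day 12 (log2 -0.42, adjusted p = 2.57e-08).

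The other acyl-CoA dehydrogenases differed from Acadm in direction or size. Acadl, for long chains, averaged 122 ± 1.3 CPM at day 6 against 135 ± 4.2 CPM at day 0 (log2 -0.14, adjusted p = 0.00219). At day 12 Acadl averaged 110 ± 4.7 CPM, lower than at day 0 (log2 -0.30, adjusted p = 1.88e-06). After TMM scaling this was about as much as Acadm was higher (log2 0.28, adjusted p = 6.52e-07). This match depended on the scaling. In TPM Acadl averaged 107 ± 2.6 at day 0 and 104 ± 6.6 at day 12, with overlapping libraries, and Acadm 100 ± 5.6 and 149 ± 4.2. Acadvl, for very long chains, was not called at day 6 (log2 -0.02, adjusted p = 0.585) and averaged 109 ± 1.8 CPM at day 12 against 96.0 ± 0.9 CPM at day 6 (log2 0.18, adjusted p = 0.00018). Acads, for short chains, was not called at day 6 (adjusted p = 0.956). Its log2 fold change of -0.14 at day 12 against day 0 (adjusted p = 0.00133) turned positive, though small, with library totals and on log2(TPM + 1). In TPM shares of the 4 dehydrogenases, Acadm held 30.4%, 40.1% and 37.2% at days 0, 6 and 12, and Acadl 32.5%, 26.4% and 25.8%. Hadha and Hadhb, the subunits of the trifunctional protein for long chains, were not called at day 6 against day 0 (log2 0.01 and -0.01). Of the 50-base stretches of Hadhb, 62.4% also occur in other genes, mainly Gm13910. The summed level of the 9 spiral enzymes was 870 ± 16 CPM at day 0, 858 ± 2.4 CPM at day 6 and 822 ± 12 CPM at day 12, while in TPM it was 696 ± 13, 715 ± 12 and 782 ± 27 (SD of 3 libraries), so the order of the days turned round with the unit.

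Auxiliary enzymes, which rearrange the double bonds of unsaturated acids, were higher at day 6 than at day 0 in 3 of 3 members, where 33.5% of all genes were higher. Decr1, the mitochondrial dienoyl-CoA reductase, averaged 35.8 ± 1.4 CPM at day 6 against 24.5 ± 1 CPM at day 0 (log2 0.55, adjusted p = 6.93e-08) and 39.5 ± 2 CPM at day 12. Eci2 averaged 60.4 ± 0.88 CPM at day 6 against 48.2 ± 1.5 CPM at day 0 (log2 0.33, adjusted p = 3.68e-06). Eci1 changed least, with a log2 fold change of 0.11 (adjusted p = 0.0137), and its call was lost with DESeq2 (0.10), without day 0 replicate C (0.09) and without day 6 replicate B (0.10).

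RNA of the 3 genes for electron transfer from the dehydrogenases to the respiratory chain was nearly level after TMM scaling. With library totals and on log2(TPM + 1), all 3 were higher at day 12 than at day 0. Etfa and Etfb, the subunits of the electron transfer flavoprotein, were not called in any comparison after TMM scaling. Their log2 fold changes were 0.02 and 0.02 at day 6 against day 0. At day 12 against day 6 they were -0.04 and -0.04, where Etfa became 0.16 on log2(TPM + 1). Etfdh, the membrane oxidoreductase that accepts their electrons, averaged 138 ± 0.37 CPM at day 6 against 127 ± 3 CPM at day 0 (log2 0.12, adjusted p = 0.00171). Etfb shares 67.3% of its 50-base stretches with Gm45233, which overlaps it on the same strand.

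All 6 peroxisomal members were higher at day 12 than at day 0, where 34.7% of all genes were, and were so with library totals too. The 3 auxiliary enzymes and both tested uptake and binding genes were likewise all higher at day 12. On log2(TPM + 1) the same held for the 5 that passed its filter, which left out Ehhadh. Ehhadh, the peroxisomal bifunctional enzyme and a classical PPARA target in rodents, had 0.454, 0.479 and 0.534 CPM at day 0, 0.606, 0.607 and 0.792 CPM at day 6, and 1.11, 0.938 and 1.06 CPM at day 12. The groups did not overlap, but the level was low, with 30 to 86 counts a library. It was 2.12-fold higher at day 12 than at day 0 (log2 1.08 ± 0.2 SE, adjusted p = 0.00023), and not called at day 6 against day 0 (log2 0.44, adjusted p = 0.0811). Its log2 fold change of 0.64 at day 12 against day 6 (adjusted p = 0.0156) missed the threshold with DESeq2 (0.63) and without day 6 replicate A, day 6 replicate B or day 12 replicate A (0.58 each). The per-library values of Cat and Decr2 were picked after being seen. Cat, the hydrogen peroxide-degrading catalase, had 101, 99.1 and 101 CPM at day 0, 90.5, 90.4 and 88.6 CPM at day 6, and 115, 113 and 118 CPM at day 12. It was lower at day 6 than at day 0 (log2 -0.16, adjusted p = 0.000158) and higher at day 12 than at day 6 (log2 0.36, adjusted p = 1.63e-07). Decr2, the peroxisomal dienoyl-CoA reductase, had 18.6, 19.0 and 18.8 CPM at day 0, 24.4, 24.6 and 24.1 CPM at day 6, and 28.2, 28.6 and 28.2 CPM at day 12. Each day stood above the one before it (log2 0.38 and 0.22, adjusted p = 3.45e-07 and 0.000229).

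Among the remaining peroxisomal members, Pex11a, which promotes peroxisome division, averaged 13.5 ± 0.73 CPM at day 6 against 8.58 ± 0.62 CPM at day 0 (log2 0.65, adjusted p = 6.82e-07). Pex5, the import receptor of matrix enzymes, averaged 65.6 ± 1.3 CPM at day 6 against 46.3 ± 1.9 CPM at day 0 (log2 0.50, adjusted p = 3.64e-09). Acaa1a, a peroxisomal thiolase, averaged 40.1 ± 0.63 CPM at day 12 against 35.5 ± 1.8 CPM at day 0 (log2 0.17, adjusted p = 0.00163). It shares 34.0% of its 50-base stretches with Acaa1b, a copy chosen for mention after its values were seen, which had 0.374 ± 0.038, 3.67 ± 0.38 and 4.52 ± 0.046 CPM at days 0, 6 and 12. Acaa1a itself was not called at day 6 against day 0 (log2 0.09, adjusted p = 0.0749). The sum of Acaa1a and Acaa1b, which includes the increase of Acaa1b, had a log2 fold change of 0.21 and was called. Summed over the 6 members, the level was 210 ± 3.1 CPM at day 0, 232 ± 3.5 CPM at day 6 and 257 ± 4.6 CPM at day 12, and in TPM 129 ± 2.8, 147 ± 1.9 and 186 ± 7.3.

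**Figure D5:**
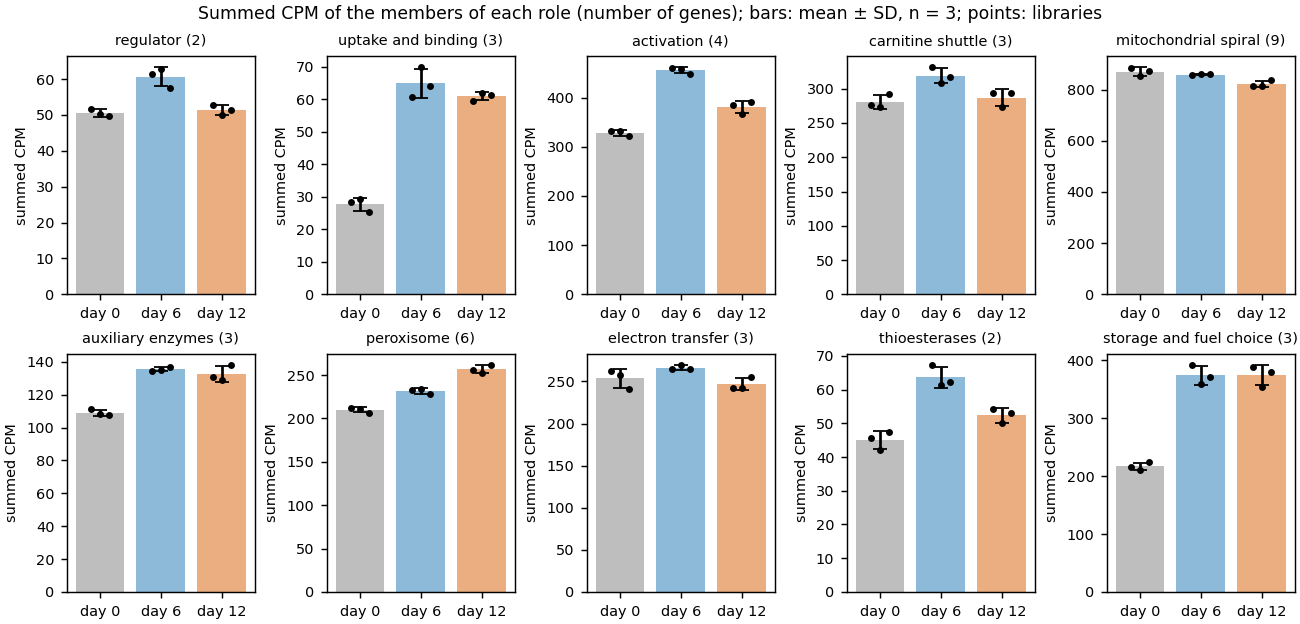
Summed TMM-scaled CPM (vertical axes, from 0) of the members of each role at day 0, day 6 and day 12. Bars are means ± SD of 3 libraries, and points are libraries. Uptake and binding goes from 27.7 at day 0 to 64.8 at day 6 and 60.9 at day 12, while the mitochondrial spiral stays between 822 and 870.

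The thioesterases, which free fatty acids from coenzyme A, diverged. Acot1, the cytosolic form and a known PPARA target, averaged 51.3 ± 2.5 CPM at day 6 against 30.7 ± 2.3 CPM at day 0 (log2 0.74, adjusted p = 8.08e-09) and 40.2 ± 1.8 CPM at day 12. Acot2, the mitochondrial form, averaged 12.3 ± 0.65 CPM at day 6 against 14.2 ± 0.38 CPM at day 0 (log2 -0.21, adjusted p = 0.00384). The 2 genes are neighbours on chromosome 12, and 23.9% of the 50-base stretches of Acot1 occur in Acot2, so reads may have been split between them. The sum of both genes had a log2 fold change of 0.50 at day 6 against day 0, a value of the pair in which Acot1 holds most counts, and not of Acot2.

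Of the PPARA targets of storage and fuel choice, Plin2, whose product coats lipid droplets, was picked for per-library values after they had been seen. It had 155, 155 and 154 CPM at day 0, 294, 284 and 282 CPM at day 6, and 306, 292 and 295 CPM at day 12. In CPM all later libraries lay far above day 0 and overlapped with each other. In TPM the day 12 libraries, at 331, 295 and 314, lay above those of day 6, at 261, 253 and 254. Plin2 was 1.85-fold higher at day 6 than at day 0 (log2 0.89 ± 0.03 SE, adjusted p = 9.35e-13) and not called at day 12 against day 6 (log2 0.06, adjusted p = 0.143). Angptl4, a secreted inhibitor of lipoprotein lipase, averaged 81.3 ± 11 CPM at day 6 against 56.8 ± 6.4 CPM at day 0 (log2 0.52, adjusted p = 0.000673). Its day 12 call against day 0 (log2 0.34, adjusted p = 0.0135) was lost with DESeq2 (0.32) and without day 0 replicate B (0.26), day 12 replicate A (0.29) or day 12 replicate C (0.26), and its libraries overlapped there. Pdk4, the kinase that shuts off pyruvate dehydrogenase and favours fat as fuel, had 5.70, 5.21 and 6.43 CPM at day 0, 6.80, 5.79 and 6.89 CPM at day 6, and 5.01, 3.83 and 5.44 CPM at day 12. Days 0 and 6 overlapped (log2 0.16, adjusted p = 0.24). It was 1.37-fold lower at day 12 than at day 6 (adjusted p = 0.00653), a call that was lost on log2(TPM + 1).

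The wider pathway was described with 8 lists of other genes. The shares of all genes to set beside the counts are 33.5% higher and 31.4% lower at day 6 against day 0. Of 23 tested PPAR receptors, partners and coregulators, 11 (47.8%) were higher and 8 (34.8%) lower. At day 12 against day 6, after TMM scaling, 3 (13%) were higher and 13 (56.5%) lower, beside 22.6% and 22.7% of all genes. At day 12 against day 0, 6 (26.1%) were higher and 8 (34.8%) lower, beside 34.7% and 31.7% of all genes. Pparg averaged 12.7 ± 1.3 CPM at day 6 against 3.11 ± 0.19 CPM at day 0, 4.08-fold higher (adjusted p = 6.28e-12), and Rxra, the partner of PPARA on DNA, 102 ± 0.55 CPM against 58.5 ± 1.4 CPM (log2 0.80, adjusted p = 2.58e-12). Prkaa2, a catalytic subunit of AMP-activated kinase, averaged 32.2 ± 1.3 CPM against 53.3 ± 1.4 CPM (log2 -0.73, adjusted p = 4.86e-10). Of 30 other reported PPARA targets, 14 (46.7%) were higher and 8 (26.7%) lower at day 6 against day 0. Among the higher ones was Plin4, another droplet coat gene, with 32.7 ± 1.5 CPM at day 6 and 8.67 ± 0.65 CPM at day 0 (log2 1.91, adjusted p = 1.22e-13). Gk, glycerol kinase, stood at 16.4 ± 0.9 CPM and 28.2 ± 0.26 CPM (log2 -0.78, adjusted p = 6.43e-09).

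Of 25 other peroxisomal oxidation genes, 17 (68.0%) were higher and 6 (24.0%) lower at day 12 against day 0, where 34.7% and 31.7% of all genes were. At day 6 against day 0 they stood at 11 (44.0%) and 7 (28.0%), beside 33.5% and 31.4% of all genes. Hsd17b4, the D-bifunctional protein, averaged 65.3 ± 2.7 CPM at day 6 against 93.4 ± 2.9 CPM at day 0 (log2 -0.52, adjusted p = 9.28e-09). Of 14 other peroxins, 4 (28.6%) were higher and 6 (42.9%) lower at day 6 against day 0. At day 12 against day 6, 4 (28.6%) were higher and 0 lower, beside 22.6% and 22.7% of all genes. At day 12 against day 0, 8 (57.1%) were higher and 3 (21.4%) lower, beside 34.7% and 31.7% of all genes. Pex6, an ATPase that recycles the import receptor, averaged 44.7 ± 1 CPM at day 12 and 29.5 ± 0.44 CPM at day 6 (log2 0.60, adjusted p = 3.79e-08). It had been lower at day 6 than at day 0 (adjusted p = 0.00264). Of 28 other mitochondrial oxidation and ketone genes, 13 (46.4%) were higher and 11 (39.3%) lower at day 6 against day 0. Cpt1c, a neuronal relative of Cpt1a, averaged 23.6 ± 0.49 CPM against 13.1 ± 0.58 CPM (log2 0.85, adjusted p = 6.25e-10), and Mmut, the mutase for odd-chain products, 55.1 ± 1 CPM against 73.5 ± 4 CPM (log2 -0.42, adjusted p = 1.16e-07).

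Single genes of lipid breakdown, pyruvate entry and chain elongation were lower at day 6 by more than any member. Mgll, the lipase for monoacylglycerol, averaged 3.19 ± 0.18 CPM at day 6 against 17.4 ± 0.24 CPM at day 0, 5.45-fold lower (adjusted p = 8.08e-14), and 9.87 ± 0.63 CPM at day 12. Lipg, endothelial lipase, averaged 2.19 ± 0.22 CPM at day 6 against 19.3 ± 0.86 CPM at day 0 (log2 -3.14, adjusted p = 1.84e-14). In the list these belong to, other uptake, activation, storage and lipolysis genes, 8 of 18 (44.4%) were higher and 4 (22.2%) lower at day 6 against day 0, beside 33.5% and 31.4% of all genes. Plin5, a further droplet coat gene, named after its values were seen, averaged 0.354 ± 0.084 CPM at day 6 against 0.787 ± 0.048 CPM at day 0 (log2 -1.13, adjusted p = 0.000461), opposite to Plin2 and Plin4. In the list of pyruvate dehydrogenase and its kinases, 3 of 12 (25%) were higher and 8 (66.7%) lower at day 6 against day 0, with a median log2 fold change of -0.32. Mpc2, a subunit of the mitochondrial pyruvate carrier, averaged 21.2 ± 0.9 CPM at day 6 against 53.6 ± 2.3 CPM at day 0 (log2 -1.34, adjusted p = 4.65e-13), and Pdk1 67.0 ± 2 CPM against 39.0 ± 0.12 CPM (log2 0.78, adjusted p = 2.07e-09). Of 21 fatty acid synthesis genes, 7 (33.3%) were higher and 9 (42.9%) lower at day 6 against day 0, the share of higher genes being close to that of all genes (33.5%). Elovl6, an elongase, averaged 22.6 ± 2.2 CPM at day 6 against 67.2 ± 0.79 CPM at day 0 (log2 -1.57, adjusted p = 4.44e-12), and Scd1, the stearoyl-CoA desaturase, 243 ± 4.7 CPM against 174 ± 2.8 CPM (log2 0.48, adjusted p = 1.88e-09).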

How the data were processed

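Both tables cover 9 libraries of polyadenylated RNA. The authors deposited unnormalised whole-number counts for each gene. They also deposited TPM, scaled to transcript length and library. The submitters' processing notes name the build GRCm38 and the tools STAR 2.7.8a, RSEM 1.3.3, FastQC 0.11.8 and cutadapt 2.3. The sources used here do not give their roles, the annotation or the strand setting, so 10 members that share exon bases with a gene on the other strand (Acaa1a, Acadvl, Acsl1, Acsl5, Crat, Echs1, Eci2, Etfdh, Fabp3 and Hadha), and 2 with a gene on the same strand (Acsl3 and Etfb), may hold its reads. If RSEM made the counts, they were rounded estimates.

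Genes were filtered with filterByExpr (16353 kept), scaled by TMM and fitted in R 4.3.3 with the quasi-likelihood F test of edgeR 4.0.16, in a single fit of all 9 libraries with 6 residual degrees of freedom. P-values were Benjamini-Hochberg adjusted over all genes tested in a comparison, and an adjusted p under 0.05 was called. The SE is that implied by the F statistic. A set of 4 transgene entries (0.00204% to 0.00284% of counts) was left out. Replicates of a day differed by more than sampling noise (chi-square per degree of freedom of 5.21 to 41.2). Alternatives used limma 3.58.1 on log2(TPM + 1) and log2(TPM + 0.1), DESeq2 1.42.0, other scalings and filters. Positions and shared 50-base stretches came from GENCODE M21 on GRCm38, in which 55141 of 55487 identifiers were found.

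The members, lists and tests were chosen with earlier results of these data known. Values of every library are given for members with a called change of at least 2-fold and 1 CPM or more in the higher group, and for Ppara, Ppargc1a and Cpt1a. Of each list, the 2 genes with the smallest adjusted p in each direction and 5 CPM or more may be named. Others were chosen after their values were seen. By the treatment protocol 4-hydroxytamoxifen was given for 2 days, whereas the design text speaks of 6 days of depletion. A gene that the rule gave is not reported here.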

Additional observations from a re-analysis of the deposited data

How the results depend on the processing

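Over 2205 recomputed log2 fold changes of members, 1962 kept their direction and side of the threshold. Another 33 kept their direction and newly passed the threshold, and 86 kept it but no longer passed. A further 57 had the opposite sign and were called in the main fit, the alternative or both, here named reversed. Of these, 2 were the sum of Acot1 and Acot2 set against Acot2. The remaining 67 also had the opposite sign but were called under neither setting. Calls held in every count fit for 24 of 26 members at day 6 against day 0 (not Cpt1a and Eci1), 12 of 25 at day 12 against day 6 (not Acadl, Acads, Acsl1, Acsl4, Cpt1a, Cpt2, Crat, Decr1, Eci2, Ehhadh, Etfdh, Hadhb and Pex5), and 23 of 29 at day 12 against day 0 (not Acads, Acot2, Angptl4, Eci1, Hadhb and Pdk4). At day 12 against day 6, members higher were 6 with DESeq2, 5 with centred TPM (chosen after seeing the data) and 18 on TPM with either pseudocount, and members lower were 7 with library totals and 3 on TPM. At day 12 against day 0, members lower were 4 with library totals and 3 on TPM. Requiring 1.5-fold left 9 members higher and 2 lower at day 6 against day 0, 2 and 1 at day 12 against day 6, and 7 and 2 at day 12 against day 0. Leaving out a library gave 19 to 20 and 6 members at day 6 against day 0, 6 to 10 and 15 to 16 at day 12 against day 6 (6 without day 6 replicate A), and 19 to 22 and 6 to 7 at day 12 against day 0.

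Library totals reversed day 12 against day 6 for Hadha (0.088) and Eci1 (0.12), and day 12 against day 0 for Ppargc1a (0.14), Acsl5 (0.12), Cpt1a (0.11), Acads (0.0025), Hadha (0.11), Etfa (0.11), Etfb (0.12) and Etfdh (0.085). On log2(TPM + 1) and log2(TPM + 0.1), day 12 against day 6 reversed to 0.20 and 0.20 for Fabp5, 0.14 and 0.14 for Acsl5 and Hadha, 0.044 and 0.044 for Cpt1a, 0.0052 and 0.0053 for Crat, 0.052 and 0.053 for Acadl, 0.030 and 0.031 for Acads, 0.17 and 0.17 for Eci1, 0.20 and 0.20 for Eci2, 0.16 and 0.16 for Etfa, 0.037 and 0.038 for Etfdh, 0.0053 and 0.0054 for Pex5, and 0.18 and 0.20 for Acot2. Day 12 against day 0 reversed to 0.23 and 0.24 for Ppargc1a, 0.24 and 0.25 for Acsl5, 0.23 and 0.23 for Cpt1a, 0.080 and 0.081 for Acads, 0.20 and 0.21 for Hadha, 0.21 and 0.21 for Etfa, 0.17 and 0.17 for Etfb, 0.20 and 0.21 for Etfdh, and 0.030 and 0.032 for Acot2. Centred TPM reversed only Eci2 (0.0016), at day 12 against day 6. The sum of Acot1 and Acot2, in which Acot1 holds most counts, gave 0.50 at day 6 and 0.22 at day 12 against day 0, opposite in sign to Acot2, and is no value of Acot2 itself. The cause of these reversals was not tested. Same-letter libraries did not deviate together (r -0.0834 to 0.0783), and the replicate block gave 20 members higher and 6 lower, 10 and 16, and 22 and 7 in the 3 comparisons. Ppara and Cd36 rest on few counts.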

Other observations

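Beyond the pathway, the 5 genes whose log2 CPM followed that of Ppara most closely over the 9 libraries were Olfm1 (Pearson r 0.996), Brat1 (0.996), Fam131a (0.994), Megf10 (0.994) and Sema3b (0.993). This describes 9 libraries that fall into 3 groups, and 499 genes lay above an r of 0.95. Olfm1 averaged 1.48 CPM at day 0, 3.52 CPM at day 6 and 6.03 CPM at day 12.

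Replicate B was the lowest library of its day for Angptl4, with 50.7 CPM at day 0, 70.0 CPM at day 6 and 58.7 CPM at day 12. The same held for Pdk4, with 5.21, 5.79 and 3.83 CPM. Other members, among them Acsl3, Cpt1a, Acaa2 and Acot1, also had replicate B lowest on every day, so this was not particular to Angptl4 and Pdk4. How often it holds over all genes was not counted.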
